A study of Homo sapiens with 4 samples.

Results

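The Wnt pathway genes described here are 10 genes chosen by name, namely the ligands WNT5A and WNT5B, the Dickkopfs DKK1 and DKK3, the receptors FZD1, FZD2, FZD6 and FZD7, the co-receptor LRP6 and the target gene AXIN2. All 10 were listed among the 13165 genes of the deposited table. They were measured by RNA sequencing in TPC1, a cell line from a human papillary thyroid carcinoma, after stable expression of INAVA (TPC1-INAVA, labelled TPC1-C1orf106) or of the vector alone (TPC1-Vector), both under puromycin selection. Each group had 2 libraries, and the table gives 1 pooled value per gene and group as FPKM, a count of sequenced fragments scaled by transcript length and library size. No spread between libraries, standard error or test could therefore be computed, the depth is unknown, and every difference between the groups below is a description of these pooled values. The study calls its INAVA-depleted lines pools and does not use that word for the lines sequenced here, and a difference between separately selected cell populations and an effect of INAVA cannot be told apart.

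Wnt proteins are lipid-modified secreted ligands that bind Frizzled receptors on the cell surface. With the co-receptors LRP5 and LRP6, they can stabilise β-catenin, which enters the nucleus and activates genes through TCF/LEF factors. WNT5A and WNT5B mostly signal without β-catenin, through Frizzleds and receptors such as ROR1 and ROR2, and are known for their part in cell movement and invasion. Dickkopf proteins are secreted antagonists, with DKK1 acting by binding LRP5 and LRP6.

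INAVA itself, listed as C1orf106, had 7.96 FPKM under the vector and 123 FPKM under INAVA expression, in the direction of the labels. The thyroid transcription factor PAX8 was at 60.1 and 55.7 FPKM, and FOXE1 at 5.26 and 5.89 FPKM, whereas the follicular markers TG, TSHR, SLC5A5 and NKX2-1 were not listed. Of 6 epithelial markers, 3 were listed, with KRT18 at 140 and 212 FPKM, KRT8 at 23.4 and 10.5 FPKM and KRT7 at 1.97 and 2.01 FPKM. KRT19, EPCAM and CDH1 were not listed. The summed level of the fibroblast markers, of which 3 of 7 were listed, was 3.56 FPKM in TPC1-Vector, against 2.19 FPKM in TPC1-INAVA. None of 3 endothelial markers and 1 of 4 leukocyte markers (CD68, at 5.76 and 8.67 FPKM) was listed. The part of these markers in the results below was not tested.

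The members spanned a wide range of levels, from AXIN2 under 1 FPKM to WNT5B as the most abundant in both groups. In TPC1-Vector the order from high to low was WNT5B, FZD6, DKK3, FZD7, FZD1, DKK1, LRP6, WNT5A, FZD2 and AXIN2. In TPC1-INAVA the first 3 and the last 2 places were the same, whereas FZD1 moved from place 5 to place 8 and WNT5A from place 8 to place 6. Without values per library, it cannot be said which neighbours in this order differ beyond their spread. Both ligands, DKK1 and AXIN2 were higher in TPC1-INAVA, and the 4 Frizzleds, LRP6 and DKK3 were lower. None of the 10 differed by 1.5-fold in either direction on log2(FPKM + 0.5), the scale used for all differences below, which understates those of weakly expressed genes. Over the 12305 genes whose mean over the groups reached 0.5 FPKM, 2.24% were higher and 1.45% lower by at least 1.5-fold. At a lower threshold, 25% higher or correspondingly 20% lower, 1 member was higher (WNT5B) and 1 lower (FZD1), against 7.69% of all genes higher and 6.74% lower. The median difference of the members was -0.07, beside 0.0033 for all genes. Counted by direction alone, 50.8% of all genes kept were higher and 49.2% lower, and the counts of higher and lower genes in the lists below stand beside these shares.

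**Figure D1:**
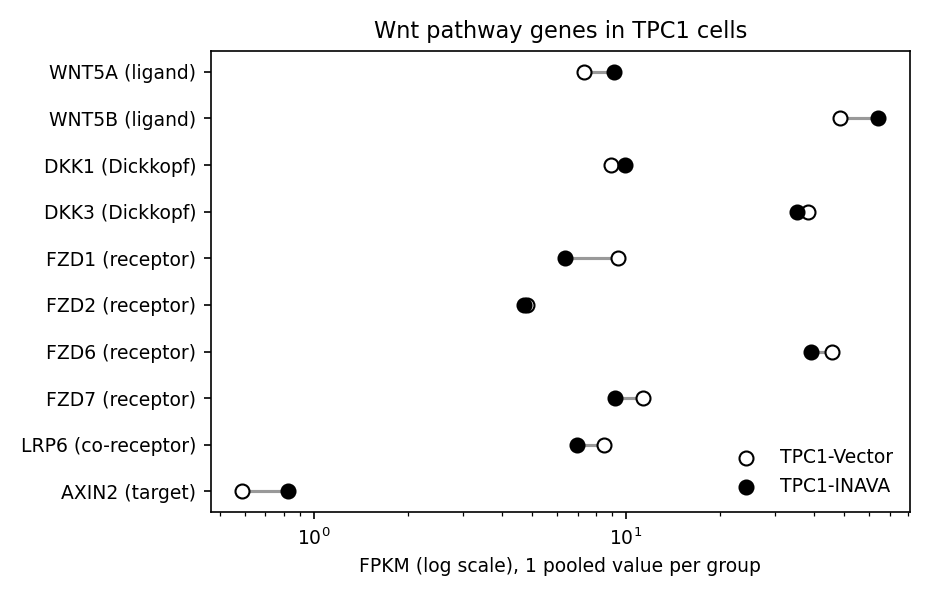
FPKM of the 10 genes on a log scale, with 1 pooled value for TPC1-Vector (open circles) and 1 for TPC1-INAVA (filled circles), so that no error bars can be drawn. Both ligands lie further right in TPC1-INAVA (WNT5B at 48.4 and 64.1 FPKM), the 4 Frizzleds and LRP6 further left, and AXIN2 is under 1 FPKM in both groups.

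Among the ligands, WNT5B was at 48.4 FPKM in TPC1-Vector, compared with 64.1 FPKM in TPC1-INAVA, a log2 difference of 0.40. Of all genes kept, 5.1% were higher by as much or more. WNT5A was at 7.32 and 9.17 FPKM, a log2 difference of 0.31, which 8.28% of all genes reached. The 2 genes are close relatives, and WNT5B exceeded WNT5A by 6.62 times in TPC1-Vector and 6.98 times in TPC1-INAVA, both as ratios of FPKM. Their coding sequences were 80.7% identical over 1077 aligned bases, but their annotated transcripts shared 0 stretches of 50 bases, the length used here to look for reads that could belong to either gene. WNT5B alone made up 57.7% of the summed FPKM of the 7 listed Wnt ligands in TPC1-Vector and 62.7% in TPC1-INAVA, with sums of 84.0 and 102 FPKM. WNT7B, which can signal through β-catenin, was the next most abundant, at 19.1 and 20.3 FPKM. WNT3, another ligand that can signal through β-catenin, was at 4.23 and 4.77 FPKM (0.16), and the table places it on an alternate contig of chromosome 17.

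The 4 Frizzleds among the members, which are seven-pass membrane receptors, were lower in TPC1-INAVA, FZD2 only slightly. FZD1 was at 9.41 FPKM in TPC1-Vector, compared with 6.39 FPKM in TPC1-INAVA, with a ratio of 0.679 and a log2 difference of -0.53, the largest among the members in either direction. Of all genes kept, 2.0% were lower by as much or more. FZD7 was at 11.3 and 9.25 FPKM, a log2 difference of -0.27 that 9.22% of genes reached. FZD6, the most abundant Frizzled and known for its part in planar cell polarity, was at 45.6 and 39.2 FPKM, a log2 difference of -0.21 that 13.1% of genes reached. FZD2 was nearly level, at 4.83 and 4.7 FPKM (-0.04). In FPKM, the difference of FZD6 (-6.36) was larger than that of FZD1 (-3.02), although its relative difference was smaller. FZD6 supplied 54.0% of the summed FPKM of the 8 listed Frizzleds in TPC1-Vector and 53.2% in TPC1-INAVA, while the sum was 84.5 and 73.7 FPKM. The 4 Frizzleds that are no members went both ways, FZD8 at 7.13 and 8.42 FPKM, FZD5 at 2.65 and 2.51, FZD4 at 2.22 and 1.72, and FZD3 at 1.39 and 1.47.

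FZD1, FZD2 and FZD7 form the closest group among these receptors. Each has 1 annotated transcript with a single exon, and their coding sequences were 82.4% (FZD1 and FZD2), 81.3% (FZD1 and FZD7) and 82.6% (FZD2 and FZD7) identical, whereas FZD6, with 7 exons in its longest coding transcript, was 57.2% to 61.1% identical to them. Their bases are shown because these relatives had unequal differences between the groups and because reads could be shared between them. FZD2 shared 32 stretches of 50 bases with FZD1 and 20 with FZD7, and FZD1 and FZD7 shared 0. Stretches were taken at every base and overlap, so that a single longer identical run counts as several. How the authors' counting divided such reads is not given in the sources used here, so the values of FZD2, FZD1 and FZD7 are uncertain to that extent. The paper states paired-end sequencing without a read length, and reads longer than 50 bases would be shared less often. The deposited ends of these genes differ from those of GENCODE release 29, by -2509 bases for FZD1, 1692 for FZD2 and -8 for FZD7. The shared stretches were searched on the GENCODE transcripts, which may not be those used for counting. The following coding bases surround the short motif by which Frizzleds bind Dishevelled, the protein that carries the signal into the cell. They are taken from GENCODE release 29, 5′ to 3′ on the coding strand, with the 18 bases of the motif in capitals.
FZD1: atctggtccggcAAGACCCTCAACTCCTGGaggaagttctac
FZD2: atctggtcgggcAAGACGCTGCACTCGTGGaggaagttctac
FZD7: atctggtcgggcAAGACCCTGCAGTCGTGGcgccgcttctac
The motif was searched in frame as a lysine codon, a threonine codon, any 3 codons and a tryptophan codon, and was held by 432 of 19516 coding sequences (2.21%). FZD2 and FZD7 have 16 of the 18 bases in common, and FZD1 has 14 in common with each. In all 3 genes 51 coding bases, stop codon not counted, follow the motif, and in FZD6, which also holds it once, 609 follow.

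The region before the FZD1 start is shown because FZD1 had the largest difference of the members. The bases are those of RefSeq on the forward strand (chr7:91264183-91264363, GRCh38.p14), ending where the annotated first exon of GENCODE begins, with CTTTG or its reverse complement CAAAG, the core of the TCF/LEF motif, in capitals.
FZD1: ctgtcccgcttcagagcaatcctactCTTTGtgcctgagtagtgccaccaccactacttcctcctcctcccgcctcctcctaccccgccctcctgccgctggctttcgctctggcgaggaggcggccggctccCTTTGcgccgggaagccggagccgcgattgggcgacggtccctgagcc
The 5-base core begins 224 and 117 bases before the RefSeq start. It was chosen after the windows had been read, and 47.5% of the 35116 RefSeq promoter windows (250 bases before to 50 after a start) hold it on either strand. Of the 6 windows of the 4 members with an entry, 3 hold it, 1 each of FZD1, DKK1 and WNT5B, and in the 250 bases before the start the WNT5A and WNT5B windows have 0 matches. The longer form ATCAAAG, searched on both strands, was in 2.62% of all windows and in 0 of these 6 windows. These are matches of letters only and say nothing about whether a factor binds there.

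LRP6, the co-receptor that Wnt brings together with a Frizzled, was at 8.5 FPKM in TPC1-Vector, compared with 6.95 FPKM in TPC1-INAVA, a log2 difference of -0.27. Of all genes kept, 9.19% were lower by as much or more. Its relative LRP5 was at 16.7 and 18.5 FPKM (0.14), so that the FPKM ratio of LRP5 to LRP6 was 1.97 in TPC1-Vector and 2.65 in TPC1-INAVA.

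The Dickkopfs differed little between the groups. DKK1 was at 8.93 FPKM in TPC1-Vector, compared with 9.96 FPKM in TPC1-INAVA, a log2 difference of 0.15. DKK3, a divergent relative of the family, was at 38.2 and 35.4 FPKM (-0.11). More extreme differences in the same direction were common, at 21.6% of genes for DKK1 and 26.5% for DKK3. DKK3 exceeded DKK1 by 4.28 times in TPC1-Vector and 3.56 times in TPC1-INAVA. The coding sequences of the pair were 62.2% identical over 770 aligned bases and their transcripts shared 0 stretches of 50 bases. KREMEN1, the receptor with which DKK1 removes LRP6 from the cell surface, was at 3.56 and 3.14 FPKM. The bases before the DKK1 start are shown because DKK1 is both an inhibitor and a known target of β-catenin (RefSeq, chr10:52314031-52314280, GRCh38.p14, forward strand, the 5-base core in capitals).
DKK1: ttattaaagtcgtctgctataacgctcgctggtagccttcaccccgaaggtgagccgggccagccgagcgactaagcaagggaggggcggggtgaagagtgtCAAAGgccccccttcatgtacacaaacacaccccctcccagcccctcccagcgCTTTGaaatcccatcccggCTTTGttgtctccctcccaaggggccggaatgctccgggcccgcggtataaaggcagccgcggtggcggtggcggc
The core begins 148, 95 and 76 bases before the start. The part of such matches in the level of DKK1 was not tested.

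AXIN2, a scaffold of the β-catenin destruction complex that is itself a widely used readout of β-catenin activity, was at 0.591 FPKM in TPC1-Vector, compared with 0.827 FPKM in TPC1-INAVA. The log2 difference was 0.28 with 0.5 added to each value and 0.42 with 0.1 added, and 9.45% of genes were higher by as much or more with 0.5 added. At this level AXIN2 lay above only 2.23% of the genes kept in TPC1-Vector, and with the depth unknown its counting error cannot be stated. Other β-catenin targets did not go one way. In the list of other target genes, MYC was at 97.2 and 98.7 FPKM, CCND1 at 201 and 224 FPKM and TNFRSF19 at 1.82 and 1.63 FPKM. DKK1, also a known target, had a log2 difference of 0.15. LGR5, a receptor for R-spondins and itself a target, comes from another list and is named for its large difference. It was at 5.52 FPKM in TPC1-Vector, compared with 2.58 FPKM in TPC1-INAVA. The log2 difference of LGR5, -0.97, was the lowest of all pathway genes examined.

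**Figure D2:**
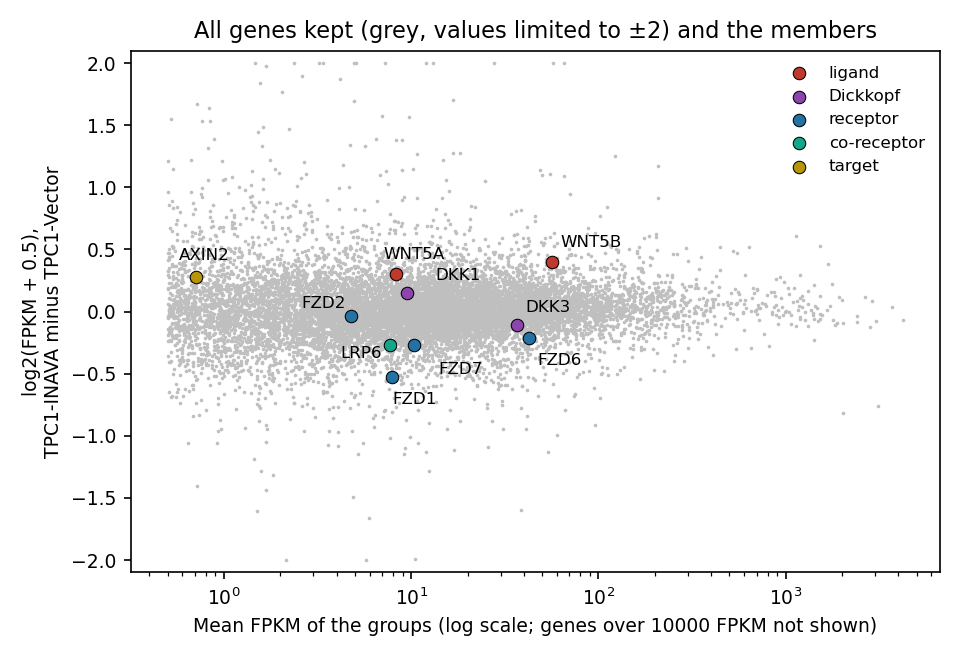
Difference of log2(FPKM + 0.5) between TPC1-INAVA and TPC1-Vector against the mean FPKM of the groups, for all genes averaging 0.5 FPKM or more (grey) and the 10 members (coloured by role). FZD1 (-0.53) and WNT5B (0.40) lie furthest from 0 among the members, and all 10 lie within the cloud of other genes.

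The members are spread over 8 chromosomes, and each was compared with the genes within 1 Mb on both sides. The comparison was planned because earlier results of these data had shown long chromosomal segments that shift together. In the deposited table (GRCh38), WNT5A lies on chromosome 3 (55465715 to 55487642), WNT5B on chromosome 12 (1617056 to 1647212), DKK1 on chromosome 10 (52314281 to 52317657), DKK3 on chromosome 11 (11962996 to 12009370), FZD1 on chromosome 7 (91264468 to 91268817) and FZD2 on chromosome 17 (44557444 to 44561262). FZD6 lies on chromosome 8 (103298433 to 103332866), FZD7 on chromosome 2 (202034587 to 202038437), LRP6 on chromosome 12 (12116026 to 12266877) and AXIN2 on chromosome 17 (65528565 to 65561622). The 8 neighbours of WNT5B had a median log2 difference of -0.15 and 2 of them were higher, so that WNT5B lay 0.55 above its neighbours. The 8 neighbours of FZD1 had a median of -0.01, and FZD1 lay 0.51 below on the log2 scale (-0.51). LRP6 (-0.33), FZD6 (-0.31) and FZD7 (-0.26) were also lower than their neighbours' medians. WNT5A exceeded its median by 0.32, but had only 2 neighbours, and DKK1 had 1, at 0.13. No member overlapped another gene in the deposited table. In GENCODE release 29, exons of DKK1 and FZD6 overlap PRKG1-AS1 and BAALC-AS1 on the other strand and exons of AXIN2 overlap AC004805.1, and reads of such pairs may not be told apart, since the sources do not say whether counting used strand.

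**Figure D3:**
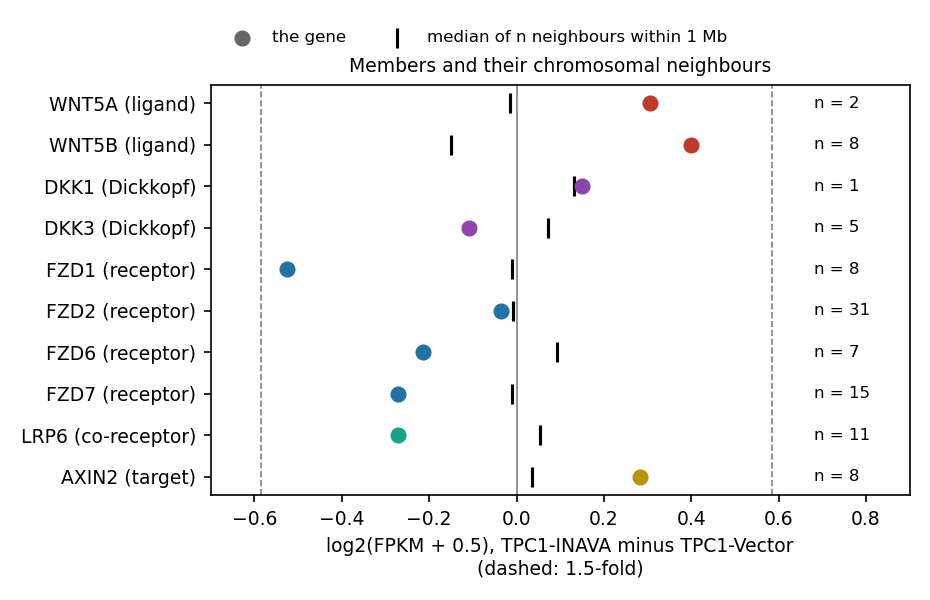
Difference of log2(FPKM + 0.5) between TPC1-INAVA and TPC1-Vector for each gene (circles, coloured by role) and the median of its neighbours within 1 Mb at a mean of at least 1 FPKM (vertical ticks, number at right). WNT5B (0.40) and FZD1 (-0.53) lie farthest from their neighbours (-0.15 and -0.01), and no gene reaches the dashed 1.5-fold lines.

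To place the 10 genes in the pathway, 92 other Wnt pathway genes were grouped by role. Of these, 55 were listed and 53 averaged 0.5 FPKM or more, with a median log2 difference of -0.03. By at least 1.5-fold, 0 of the 53 were higher and 2 (3.77%) lower, beside 2.24% and 1.45% of all genes. The 2 genes were LGR5 and WNT2B, a ligand at 2.29 FPKM in TPC1-Vector, compared with 1.27 FPKM in TPC1-INAVA (-0.65). Of the other receptors and co-receptors 5 of 8 were higher, with a median of 0.07, led in level by RYK (29.8 and 31.8 FPKM) and PTK7 (23.6 and 24.9 FPKM). ROR1, a receptor of WNT5A, was at 11.2 and 9.01 FPKM (-0.30). Both genes needed for ligand export were lower, the acyltransferase PORCN at 3.24 and 2.89 FPKM and the carrier WLS at 11.3 and 8.42 FPKM (-0.40). Of the secreted inhibitors and Dickkopf receptors other than the members, KREMEN1 and KREMEN2 were listed of 14, and KREMEN2 was at 0.473 and 0.761 FPKM. Of the R-spondins and genes of Frizzled turnover, 3 of 9 were listed, LGR5 with the difference given above, LGR4 at 25.9 and 24.6 FPKM and the ubiquitin ligase ZNRF3 nearly level at 4.38 and 4.34 FPKM (-0.01).

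Inside the cell, Dishevelled and the destruction complex were divided evenly, with 7 of 14 genes higher and a median of -0.01. CTNNB1, which encodes β-catenin, was at 146 and 159 FPKM, and the kinase CSNK1A1 at 121 and 125 FPKM. The lowest values were TNKS2 (-0.36), DVL3 (-0.35) and BTRC (-0.30), and their neighbours within 1 Mb had medians of -0.30, -0.23 and -0.30. The nuclear partners of β-catenin had 3 higher and 6 lower genes, where 49.2% of all genes were lower, and a median of -0.24. Their most abundant genes were BCL9L (17.7 and 20.4 FPKM) and PYGO2 (14.7 and 11.2 FPKM, -0.38). The list of nuclear partners does not separate activators from inhibitors of β-catenin, and its median is the value of CTNNBIP1 (11.5 and 9.65 FPKM). TCF7L2, at 8.56 and 7.08 FPKM (-0.26), had neighbours with a median of -0.44, and TCF7L1 was at 4.61 and 3.39 FPKM (-0.39) with neighbours at 0.04. The part of these chromosomal neighbourhoods in the values was not tested. In the planar cell polarity list, 4 of 8 genes were higher, with a median of -0.10. The most abundant there were PRICKLE1 (20.8 and 18.0 FPKM) and VANGL1 (13.2 and 11.2 FPKM), and CELSR2, at 4.35 and 3.18 FPKM, was the lowest in difference (-0.40). In the list of other target genes, the 3 genes in the deposited table (MYC, CCND1 and TNFRSF19) had a median of 0.02.

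**Figure D4:**
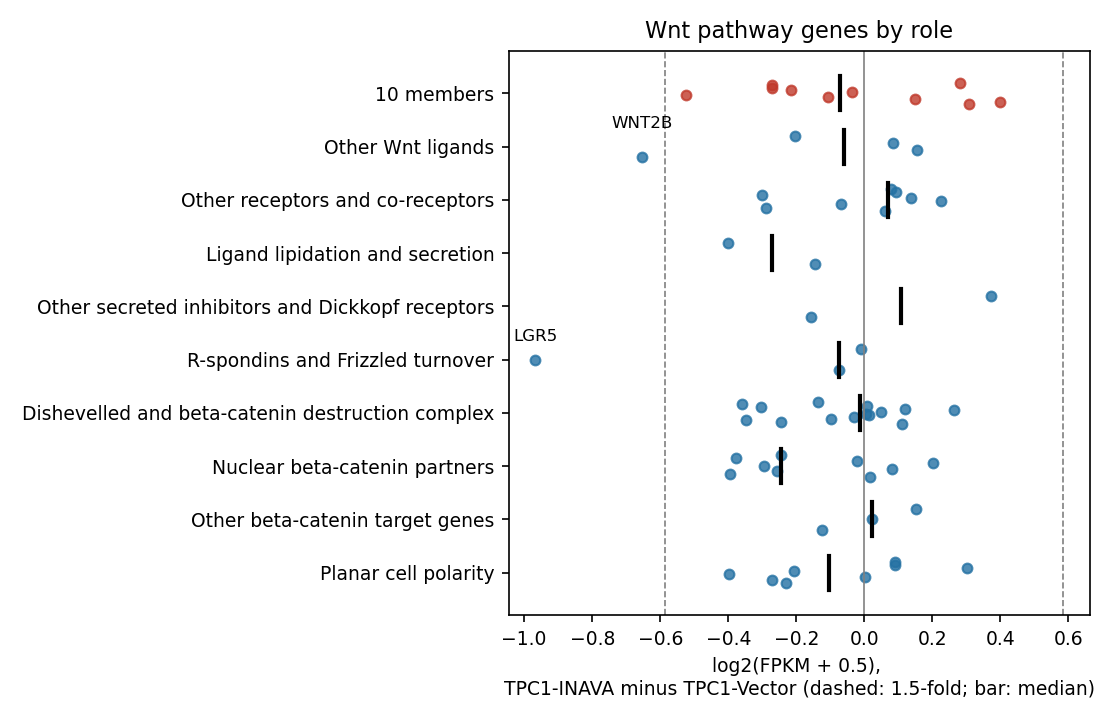
Difference of log2(FPKM + 0.5) between TPC1-INAVA and TPC1-Vector for the 10 members (red) and for 53 other Wnt pathway genes by role (blue), 1 point per gene, with the median of each list as a bar. LGR5 (-0.97) and WNT2B (-0.65) lie past the dashed 1.5-fold line, and the nuclear β-catenin partners have a median of -0.24.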

How the data were processed

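RNA from TPC1-Vector and TPC1-INAVA cells was sequenced with 2 libraries per group. The file the authors deposited holds 1 FPKM value per group for each gene, which means that libraries were pooled before deposition. The submitters' processing notes name CASAVA, Cufflinks 2.1.1, Cuffdiff and hg38, and the aligner and annotation are not given in the sources used here. The labels and the methods name different library kits. The table also holds the authors' log2 ratio, direction, p-value and q-value, which were not used. Depth per library is unknown.

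Genes averaging 0.5 FPKM or more over the groups were kept (12305 of 13165). Differences were computed as log2(FPKM + 0.5), TPC1-INAVA minus TPC1-Vector, with 1.5-fold as the threshold. The 1.5-fold counts were checked on simulated 2-fold changes without noise in well-expressed genes, so values near the threshold or the filter were not tested. Median-of-ratios scaling was checked by removing a simulated scale factor. The neighbour median was computed with all genes doubled, which cannot test whether the right neighbours were taken. The other steps were not checked. No test was run. A follicular marker of the fixed list is not reported here. Deposited starts were read as counted from 0. Neighbours were genes within 1 Mb at a mean of at least 1 FPKM. For each gene the longest coding transcript of GENCODE release 29 was aligned globally with biopython 1.88. Deposited positions of some members differ from GENCODE, as at the start of WNT5B, by 87165 bases. Ratios and shares of FPKM between genes depend on the gene models used for counting. Promoter bases came from RefSeq, where 4 of 10 members had an entry. The named genes are the members, INAVA, in each list the 2 most abundant genes, those past 1.5-fold with at least 1 FPKM in the higher group, and the cell type markers. Others (FZD3, FZD4, FZD5, FZD8, LRP5, ROR1, ROR2, WNT9A, TNKS2, DVL3, BTRC, TCF7L1, TCF7L2, CTNNBIP1, CELSR2 and TNFRSF19) were named after their values were seen. The members and lists were chosen with earlier results of these data known. The alternatives were pseudocounts of 0.1 and 1, no filter, a filter at a mean of 1 FPKM, median-of-ratios scaling, quantile normalization, thresholds of 25% higher or 20% lower and of 2-fold, and neighbours within 2 Mb. Python 3.11.15, numpy 2.4.6 and pandas 2.3.3 were used.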

Additional observations from a re-analysis of the deposited data

How the results depend on the processing

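No paired analysis was possible because each group has 1 pooled value, and leaving out each library in turn was not run for the same reason. The direction of all 10 members was kept under both other pseudocounts, no filter, median-of-ratios scaling and quantile normalization, and that of the 9 members left at a mean of at least 1 FPKM, where AXIN2 has no value. Over these alternatives the log2 difference of FZD1 ranged from -0.55 to -0.50, that of WNT5B from 0.37 to 0.40 and that of AXIN2 from 0.20 to 0.42. None of the members passed 1.5-fold in any of them. At 25% higher or 20% lower, 1 member was higher and 1 lower, and the counts over all genes, 276 higher and 179 lower at 1.5-fold, were 946 and 829. At 2-fold they were 75 and 30. The count of members at 25% holds for 0.5 added to each value. With 0.1 added, AXIN2 (0.42) was also more than 25% higher. In FPKM with nothing added, AXIN2 was 39.8% and WNT5A 25.3% higher. With 0.1 added to each value, 289 genes were lower by 1.5-fold, since a smaller pseudocount shrinks weak genes less. With 1 added, WNT2B was at -0.53, no longer past 1.5-fold, for the same reason. Within 2 Mb instead of 1 Mb, the neighbours' median turned from -0.01 to 0.0259 for WNT5A and from 0.13 to -0.045 for DKK1, which have few neighbours. Without library values, no statement on error is possible, least of all for AXIN2.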

Other observations

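A pair of Wnt pathway genes fell under the filter on the mean and entered no count of higher or lower genes above. Both are included in the counts of listed genes, and WNT9A in the summed FPKM of the Wnt ligands. The ligand WNT9A was at 0.0748 FPKM in TPC1-Vector, compared with 0.402 FPKM in TPC1-INAVA. ROR2, a receptor of WNT5A, was at 0.194 and 0.507 FPKM. At these levels, and with the depth unknown, the number of reads behind the values cannot be given.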
